A study of Mus musculus with 4 samples.

Results

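Oxidative phosphorylation runs on protein complexes of the inner mitochondrial membrane, and the genes described here encode their subunits in the nucleus. Members were chosen by symbol alone: symbols beginning with Nduf, Uqcr, Atp5, Cox4i, Cox5, Cox6, Cox7 or Cox8, together with Sdha, Sdhb, Sdhc, Sdhd and Cycs. Of the 25239 symbols in the count tables, 98 met this rule and 96 remained after symbols ending in -ps were dropped. Requiring 10 reads or more on average per library kept 88 of the 96, among 13357 genes in all that passed the same minimum. By complex, the 88 comprised 44 of complex I, 4 of complex II, 8 of complex III, 14 of complex IV, 17 of complex V and Cycs. The prefix Nduf also takes in 8 assembly factors, Ndufaf1 to Ndufaf8, which build complex I without staying in it. Ndufa4 is named after complex I and is counted here with complex IV, where the protein is now placed.

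The study grew B16 cells, a mouse melanoma line, under the skin of both flanks of B6 mice and treated the mice on day 7. The mice behind all 4 libraries received CTX i.p. 1 day before ACT, and tumor tissue was taken 12 days after ACT. In 1 treatment group TRP-1 T cells were given i.v. and free MV, written MYXV in the file headers, was put into the left tumor: that tumor is the MV left tumor, and the uninjected right tumor of the same group is the remote tumor. The other 2 treatment groups received TRP-1MV cells i.v., called TRP-1 TMV cells in the protocol and with MYXV in the file header, or PBS into the left tumor with no T cells or virus stated in their label (the CTX tumor). Which flank the TRP-1MV and CTX libraries came from is not stated. The labels give n = 2, each tumor type has 1 library, and nothing in them says if mice were pooled. No spread between animals can be estimated, so no test was made, and each interval below is a 95% exact binomial interval that covers counting error only.

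Electrons from NADH enter the respiratory chain at complex I (NADH dehydrogenase) and those from succinate at complex II. They pass through complex III and cytochrome c to complex IV (cytochrome c oxidase), and the proton gradient built on the way drives complex V, the ATP synthase. A few further subunits of complexes I, III, IV and V are encoded by mitochondrial DNA, and the count tables hold 0 such symbols. Promoters of the nuclear genes are known for binding sites of NRF1, ETS family factors such as GABP, and YY1.

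The MV left tumor library held 12375526 counts in total, the TRP-1MV library 14802809, the remote library 21790759 and the CTX library 20811605. The 2 shallower libraries also had 1.64% and 1.62% of their counts in Rn45s, Lars2, Rpph1 and Rmrp, against 0.164% in the remote tumor and 0.141% in the CTX tumor. All 7 melanocyte markers were at least 2-fold lower in both virus-treated tumors than in the CTX tumor. Their summed reads per 1000000 counted reads (RPM) were 6271 in the MV left tumor, 5852 in the TRP-1MV tumor, 22963 in the remote tumor and 22771 in the CTX tumor, so all 4 libraries carry the melanocyte genes of the labelled tumor. T cell markers (7 genes) summed to 195, 191, 8.58 and 8.55 RPM in the same order, and macrophage and monocyte markers (6 genes) to 909, 1338, 66.3 and 54.0. Keratinocyte markers (4 genes) reached at most 1.08 RPM. These cell-type values moved with the differences between the virus-treated and the other tumors described below, and their part in it was not tested. In bulk tissue, fewer cells of a type and less RNA per cell cannot be told apart.

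The promoters of 4 genes are shown as examples. Cycs and Sdhb were lower in both virus-treated tumors, and the paralogs Cox7a2 and Cox7a2l went in different directions. Each is a RefSeq window of GRCm38.p6 from 250 bases before to 50 bases after a start of the gene. The bases run 5′ to 3′ on the gene's strand, with matches to 3 motifs in capitals. They lie at chr6:50566520-50566819 (minus strand, Cycs), chr4:140961021-140961320 (plus strand, Sdhb), chr9:79759804-79760103 (minus strand, Cox7a2) and chr17:83514284-83514583 (minus strand, Cox7a2l).
Cycs: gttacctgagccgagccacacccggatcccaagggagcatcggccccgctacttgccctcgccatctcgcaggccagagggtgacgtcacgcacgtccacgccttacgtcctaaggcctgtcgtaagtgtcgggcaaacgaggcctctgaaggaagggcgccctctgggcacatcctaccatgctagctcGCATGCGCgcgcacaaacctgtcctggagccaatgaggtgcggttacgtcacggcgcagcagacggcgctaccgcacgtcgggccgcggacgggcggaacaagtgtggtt
Sdhb: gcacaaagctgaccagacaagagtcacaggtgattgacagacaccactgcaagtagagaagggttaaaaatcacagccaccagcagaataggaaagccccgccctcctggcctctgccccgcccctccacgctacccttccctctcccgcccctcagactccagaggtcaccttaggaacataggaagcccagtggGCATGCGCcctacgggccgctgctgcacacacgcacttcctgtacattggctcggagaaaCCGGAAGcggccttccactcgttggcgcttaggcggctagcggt
Cox7a2: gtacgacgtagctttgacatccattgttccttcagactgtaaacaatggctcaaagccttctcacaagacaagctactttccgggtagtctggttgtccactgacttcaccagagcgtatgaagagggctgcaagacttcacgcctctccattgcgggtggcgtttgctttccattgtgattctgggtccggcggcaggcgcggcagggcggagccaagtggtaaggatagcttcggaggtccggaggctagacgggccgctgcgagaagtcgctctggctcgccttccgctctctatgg
Cox7a2l: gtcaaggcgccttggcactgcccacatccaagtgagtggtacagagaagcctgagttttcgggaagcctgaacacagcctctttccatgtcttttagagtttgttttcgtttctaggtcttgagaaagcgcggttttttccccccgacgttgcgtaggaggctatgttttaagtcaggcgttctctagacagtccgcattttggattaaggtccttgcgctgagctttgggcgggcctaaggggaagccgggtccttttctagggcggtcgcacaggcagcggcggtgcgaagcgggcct

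The motifs searched on both strands were GCGCATGC for NRF1, CCGGAAG for ETS factors and AAGATGGC for YY1, and matches of different motifs may overlap. The Cycs window holds the NRF1 letters on the opposite strand at bases 191 to 198, counted from 1 at the 5′ end of the window. In the Sdhb window the NRF1 letters lie on the opposite strand at bases 197 to 204 and the ETS letters on the printed strand at bases 257 to 263. Neither the Cox7a2 nor the Cox7a2l window holds any of the 3. The Cox7a2l window lies inside the gene as placed by GENCODE M21, whose 5′ end is at base 83517330 of chr17. Starts farther upstream are not covered by the window shown. Windows were found for 73 of the 88 members, 78 windows in all. The NRF1 letters were in 16.7% of them, against 5.00% of the 13558 windows of all genes compared and 2.71% of all 32851 windows. For the ETS letters the shares were 24.4%, 16.7% and 8.86%, and for the YY1 letters 14.1%, 4.20% and 2.75%. In 75 windows of mitochondrial ribosome genes the shares were 10.7% for NRF1, 34.7% for ETS and 16.0% for YY1. The ETS and YY1 shares are thus not particular to the members. At least 1 of the 3 motifs was in 46.2% of the member windows and 23.7% of the windows of all genes compared. Among members the presence of a motif went with little difference in the MV left to CTX log2 ratio. The median was -0.99 in 13 members with the NRF1 letters and -1.03 in 60 without. For the ETS letters it was -1.02 in 19 with and -1.02 in 54 without, and for the YY1 letters -0.97 in 11 with and -1.03 in 62 without.

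Member transcripts took a smaller share of both virus-treated libraries. Summed over all 96 members, including the 8 under the minimum count, their level was 8600 RPM in the MV left tumor, 8504 in the TRP-1MV tumor, 15137 in the remote tumor and 14695 in the CTX tumor. The remote and CTX tumors were alike and high, and the 2 virus-treated tumors alike and low, 0.585 and 0.579 of the share in the CTX tumor. This share needs no scaling factor between libraries. Its division among the complexes hardly moved: complex I took 24.6% to 25.4% of member reads over the 4 libraries, complex II 6.13% to 6.32%, complex III 9.50% to 10.3%, complex IV 18.1% to 18.7%, complex V 38.8% to 39.6% and Cycs 1.45% to 1.48%. Atp5b and Atp5a1, the catalytic and the non-catalytic subunit of the head of ATP synthase, together held 18.9% to 19.6% of member reads in each library.

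**Figure D1:**
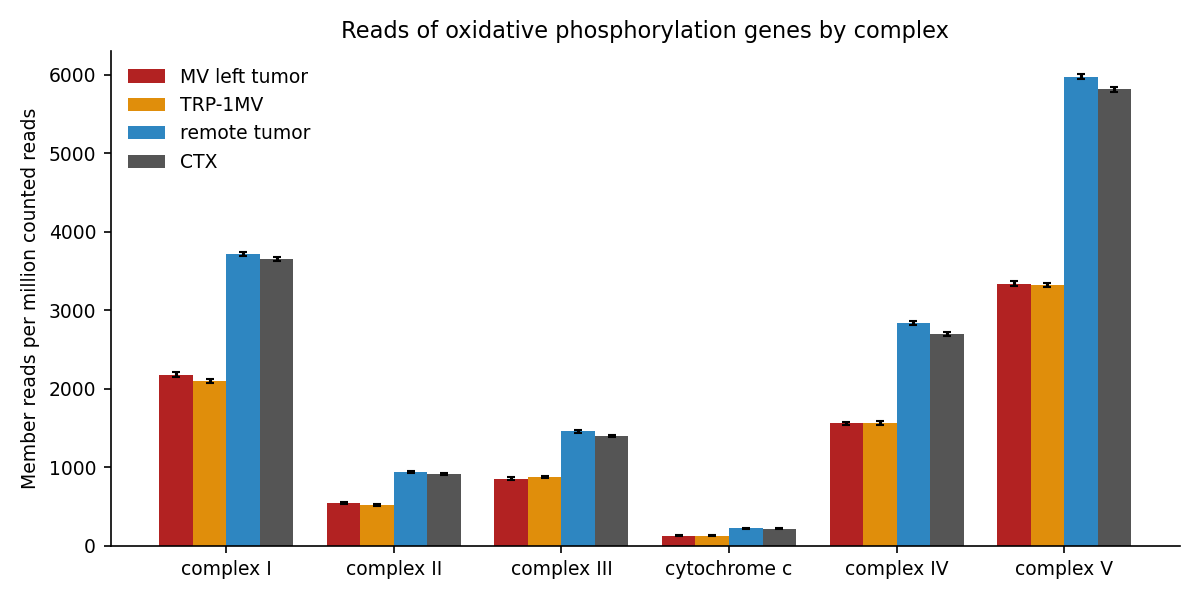
Reads of the 96 members in RPM (vertical axis, from 0) for each respiratory complex and cytochrome c in the 4 libraries. Bars are single libraries and error bars are 95% exact binomial intervals for counting error. In each complex the bars of the MV left and TRP-1MV tumors are lower than those of the remote and CTX tumors, as in complex V with 3340 and 3322 against 5973 and 5816.

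Gene by gene, counts were scaled with TMM factors, which align libraries on the bulk of their genes, and expressed as counts per 1000000 of the scaled total (CPM). Against the CTX tumor, the median log2 ratio of the 88 members was -1.02 in the MV left tumor (SD over members 0.38) and -1.02 in the TRP-1MV tumor (SD 0.35), a 2.02-fold lower level in both, while the medians of all genes compared were -0.05 and -0.07. A gene was called when its ratio was at least 2 in either direction and its interval excluded 1. In the MV left tumor 46 of 88 members were called lower and 0 higher, where 11.1% of all 13357 genes were called lower and 18.1% higher. The TRP-1MV tumor gave 45 lower and 0 higher, where 11.7% and 18.5% of all genes were called. At a ratio of 1.5, 82 of 88 members were lower in each, against 24.1% of all genes in the MV left tumor and 24.8% in the TRP-1MV tumor. Both comparisons share the CTX library.

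These counts depend on the scale. Scaling to total counts shifted the median of all genes by 0.24 in both comparisons and left 23 and 24 members called lower, with 6.66% and 6.97% of all genes. Scaling to 12 housekeeping genes shifted it by 0.61 and 0.54 and left 2 and 3 members called lower, with 3.20% and 3.93% of all genes. Those 12 genes did not move together. Under TMM their log2 ratios ran from -1.45 to 0.63 in the MV left tumor and from -1.51 to 0.68 in the TRP-1MV tumor, with 5 called lower in each. The direction did not depend on the scale for most members. Under TMM, 85 of 88 were below 0 in the MV left tumor and 86 in the TRP-1MV tumor. On the housekeeping scale 82 and 83 were below 0, beside 23.9% and 27.5% of all genes.

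Members were more abundant and shorter than most genes, with a median CPM of 88.4 against 32.9 and a median exon length of 1696.5 bp against 4436 bp. Among 874 other genes with a CPM of at least 53.0 and at most 2910.5 bp of exons, the median log2 ratio was -0.46 in the MV left tumor and -0.45 in the TRP-1MV tumor. Of these, 15.7% and 16.0% were called at least 2-fold lower, below the 46 and 45 of 88 members. Other genes inside these cuts were thus lower too, by less at the median than the members. The cuts do not match them to the members in abundance or length.

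In the remote tumor the members stood near the CTX level. Their median log2 ratio was 0.05 (SD 0.12), and 0 of 88 were called lower or higher, where 0.253% of 13030 genes were called lower and 0.468% higher. At a ratio of 1.5, 0 members were lower, against 0.629% of genes, and 0 higher, against 0.752%. Between the 2 virus-treated tumors the median was -0.02 (SD 0.13), with 0 members called in either direction, where 0.217% of 13348 genes were lower and 0.562% higher in the TRP-1MV tumor. At a ratio of 1.5, 0 members were lower in the TRP-1MV tumor, against 0.532% of genes, and 0 higher, against 2.44%. With the remote tumor in place of the CTX tumor as the reference, the member medians were -1.05 for the MV left tumor and -1.09 for the TRP-1MV tumor, with 47 and 52 members called lower, where 11.7% and 12.1% of all genes were.

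**Figure D2:**
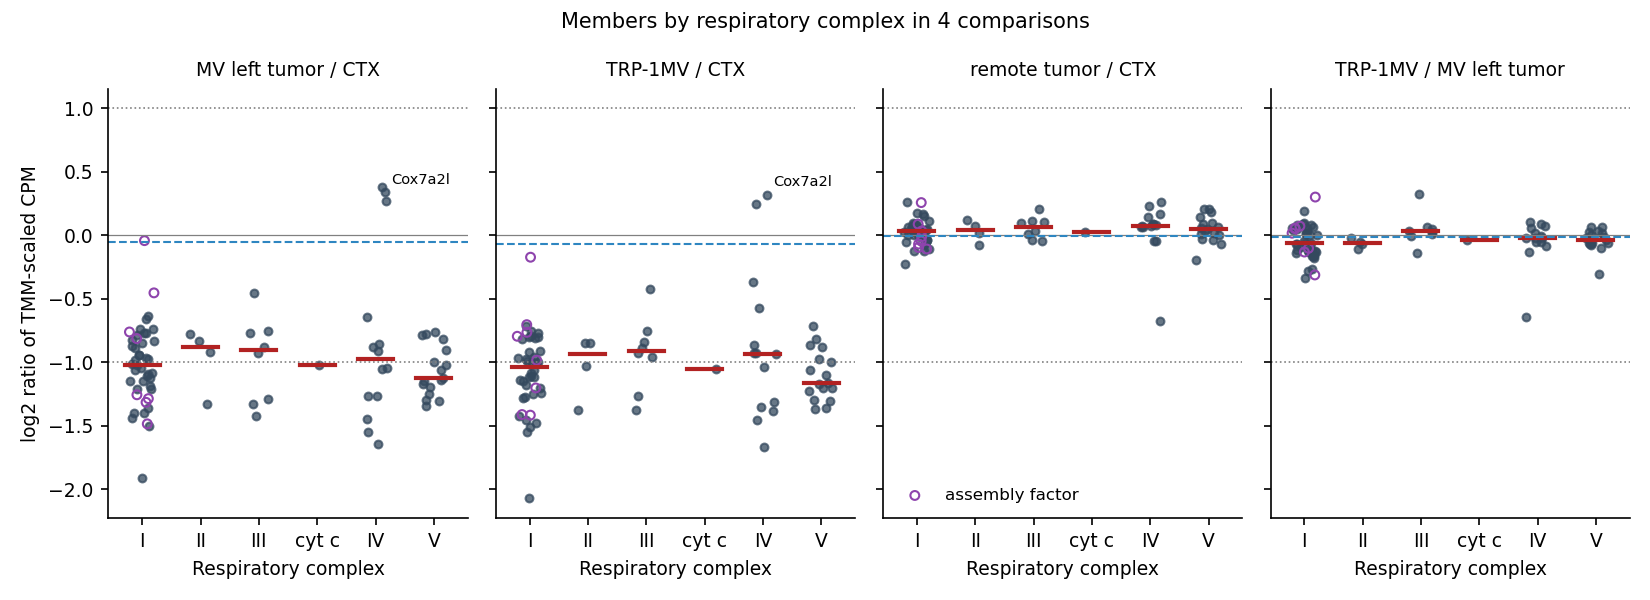
Log2 ratio of TMM-scaled CPM of the 88 members (vertical axis) by respiratory complex in 4 comparisons of 2 libraries each. Filled points are subunits and other members, open points assembly factors, red bars the median of a complex, the blue dashed line the median of all genes and dotted lines a ratio of 2. Members of all complexes centre near -1 against the CTX tumor in the MV left and TRP-1MV tumors (medians -1.02 and -1.02) and near 0 in the other 2 comparisons (0.05 and -0.02).

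Complex I carried the most members. All 35 of its subunits past the minimum count were at least 1.5-fold lower in the MV left and the TRP-1MV tumor than in the CTX tumor, and 18 and 19 of them at least 2-fold lower, with medians of -1.02 and -1.06. Ndufs1, the large iron-sulfur subunit that passes electrons from NADH inward, stood at 135 CPM in the MV left tumor, 125 in the TRP-1MV tumor, 241 in the remote tumor and 251 in the CTX tumor. Both virus-treated tumors were low for it, with log2 ratios to the CTX tumor of -0.89 (interval -0.97 to -0.81) and -1.01 (-1.08 to -0.93). Ndufv1, which binds NADH, was lower by less, at 67.6, 61.6, 113 and 106 CPM in the same order of libraries and log2 ratios of -0.66 and -0.79. The 7 core subunits had medians of -0.98 and -0.997, and the 28 accessory subunits, which surround the core without carrying electrons, -1.03 and -1.10.

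Among accessory subunits the lowest MV left ratio was that of Ndufb5, a membrane arm subunit, at 42.6, 45.1, 121 and 121 CPM. Its log2 ratios to the CTX tumor were -1.50 (-1.64 to -1.37) and -1.42 (-1.55 to -1.30). Ndufb2 had the lowest ratio in the TRP-1MV tumor, -1.55 (-1.78 to -1.32), at 16.3, 12.9, 37.5 and 37.7 CPM. Ndufa6 had the highest of the subunits in the MV left tumor, -0.63 (-0.78 to -0.49), at 40.5, 37.2, 65.4 and 62.8 CPM. The paralog Ndufb4c had the lowest ratio of all members, -1.91 (-2.81 to -1.10), on only 15, 16, 71 and 80 reads, and its reads may be shared with Ndufb4.

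The 8 assembly factors ranged from -1.48 to -0.04 in the MV left tumor, where the subunits ranged from -1.50 to -0.63. Ndufaf6 was at 4.66, 4.90, 13.9 and 13.0 CPM, with log2 ratios to the CTX tumor of -1.48 (-1.91 to -1.08) and -1.41 (-1.79 to -1.04). Ndufaf1, a factor of early complex I assembly, was nearly level in all libraries at 18.4, 16.8, 19.3 and 18.9 CPM. Its ratios of -0.04 (-0.28 to 0.20) and -0.17 (-0.40 to 0.06) did not differ from 1 beyond counting error under TMM, and on the housekeeping scale the first became 0.57. Of the 8, 4 in the MV left tumor and 3 in the TRP-1MV tumor were called lower. A fixed list of 7 other measured complex I assembly factors, whose symbols fall outside the rule, had medians of -0.15 and -0.29, with 1 called lower in each comparison (Nubpl, an iron-sulfur cluster carrier, at -1.64 in the MV left tumor).

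Complex II has 4 members, all nuclear. Sdhb, its iron-sulfur subunit, was at 144 CPM in the MV left tumor, 139 in the TRP-1MV tumor, 392 in the remote tumor and 360 in the CTX tumor. Its log2 ratios of -1.32 (-1.40 to -1.25) and -1.37 (-1.44 to -1.31) were the lowest of the complex. Sdha, the flavoprotein that oxidises succinate, was at 160, 158, 269 and 284 CPM, and its ratios of -0.83 (-0.90 to -0.76) and -0.85 (-0.92 to -0.78) have intervals apart from those of Sdhb. The membrane anchors Sdhc and Sdhd had MV left ratios of -0.92 and -0.78 and TRP-1MV ratios of -1.02 and -0.85. Subunits of this 1 enzyme differed in the size of their ratio by more than counting error.

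In complex III the core proteins had higher ratios than most small subunits. Uqcrfs1, the Rieske iron-sulfur protein, was at 90.1, 92.0, 126 and 123 CPM and had the highest ratios of the complex under TMM, -0.46 (-0.56 to -0.36) and -0.43 (-0.52 to -0.33), the first of which became 0.16 on the housekeeping scale. Uqcrc1, a core protein, was at 203, 205, 375 and 346 CPM, with ratios of -0.77 and -0.75. The 5 small subunits had medians of -1.29 and -0.96, with Uqcrh, at -0.75 in the MV left tumor, inside the range of the core proteins. The lowest was Uqcr11 at 39.5, 41.0, 114 and 106 CPM and ratios of -1.43 (-1.57 to -1.29) and -1.37 (-1.50 to -1.25). Uqcr10 was at 71.0 CPM in the MV left tumor and 89.0 in the TRP-1MV tumor. That log2 ratio of 0.33 was the highest of the 88 members between these tumors and short of a call, and the lowest was -0.64 for Cox7a1 on few reads. Cyc1, cytochrome c1 of the same complex, is no member by its symbol and was at 153, 157, 381 and 343 CPM, a ratio of -1.16 in the MV left tumor and -1.13 in the TRP-1MV tumor.

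Cycs, somatic cytochrome c, which carries electrons from complex III to complex IV, was at 116, 114, 240 and 236 CPM. Its log2 ratios of -1.02 (-1.10 to -0.93) and -1.05 (-1.13 to -0.97) lay at the median of the members, and -0.77 and -0.81 were obtained with total counts, under the 2-fold threshold. The remote tumor was level with the CTX tumor for it, at 0.03.

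Complex IV held the widest range. Its 11 ubiquitous subunits had medians of -1.05 in the MV left tumor and -1.03 in the TRP-1MV tumor, with 7 and 6 called lower. Ndufa4 was at 119 CPM in the MV left tumor, 117 in the TRP-1MV tumor, 361 in the remote tumor and 371 in the CTX tumor. The virus-treated tumors were 3.13-fold lower for the first, a log2 ratio of -1.65 (-1.72 to -1.57), and at -1.67 (-1.74 to -1.60) for the second, the lowest of the complex. Cox5b, a matrix-side subunit, followed at 145, 155, 452 and 424 CPM, with ratios of -1.54 (-1.62 to -1.47) and -1.45 (-1.52 to -1.39). Cox4i1, the largest nuclear-encoded subunit, was at 147, 142, 284 and 270 CPM, with ratios of -0.88 and -0.93. Cox6a1 was the least lowered ubiquitous subunit, at 146, 153, 273 and 228 CPM and ratios of -0.65 and -0.57. In the remote tumor Cox6a1 and Cox8a stood slightly above the CTX tumor, at 0.26 and 0.23, both far from a call.

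Cox7a2l, a paralog of Cox7a2, is described as a factor linking complexes III and IV into supercomplexes. Whether it does so in these tumors was not tested. Cox7a2l was the 1 member with a mean count of at least 100 that stood higher against the CTX tumor in both virus-treated tumors. It had 2240, 2633, 2876 and 2508 reads in the MV left, TRP-1MV, remote and CTX tumors, or 166, 163, 144 and 131 CPM. The log2 ratios to the CTX tumor were 0.34 (0.26 to 0.42), 0.32 (0.24 to 0.40) and, in the remote tumor, 0.14 (0.07 to 0.22), none of them a call. Against the remote tumor the virus-treated tumors were at 0.20 and 0.18. The 5 other scalings tried also placed it above 0 in both, from 0.33 to 0.95 in the MV left tumor. Cox7a2 itself was at 77.6, 73.3, 195 and 187 CPM, with ratios of -1.26 (-1.37 to -1.17) and -1.35 (-1.44 to -1.25). Cox7a2l held 68.1% of the reads of the pair in the MV left tumor, 69.0% in the TRP-1MV tumor, 42.5% in the remote tumor and 41.2% in the CTX tumor, with exact binomial intervals of 66.5% to 69.7% in the first and 41.3% to 43.7% in the remote tumor. This share is free of scaling between libraries, is not per length, and separates the 2 virus-treated tumors from the other 2. GENCODE M21 places Cox7a2l at chr17:83501918-83517330 and Cox7a2 at chr9:79755361-79759878.

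**Figure D3:**
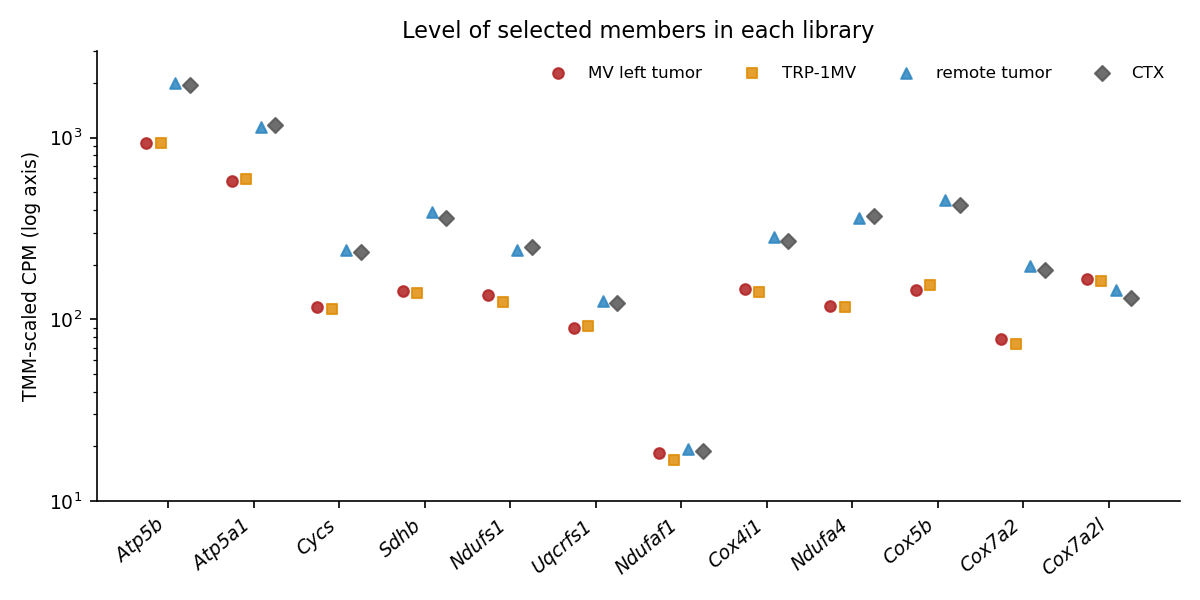
TMM-scaled CPM (vertical log axis) of 12 members in each of the 4 libraries, 1 marker per library. The MV left and TRP-1MV markers lie below the remote and CTX markers for Atp5b (932 and 936 against 1990 and 1946), are close to them for Ndufaf1 and lie above them for Cox7a2l (166 and 163 against 144 and 131).

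Subunits with a muscle, lung or testis isoform were present almost wholly as the ubiquitous form. Cox7a1, the heart and muscle isoform, had 17, 13, 13 and 20 reads in the MV left, TRP-1MV, remote and CTX tumors, or 1.59%, 1.09%, 0.333% and 0.556% of the reads of Cox7a1 and Cox7a2. Cox6a2, a muscle isoform, had 11, 12, 14 and 12 reads, or 0.555%, 0.483%, 0.257% and 0.273% of its pair. Their log2 ratios of 0.27 (-0.75 to 1.28) and 0.38 (-0.94 to 1.69) in the MV left tumor did not differ from 1 beyond counting error. Skeletal muscle markers (7 genes) summed to 18.8, 18.8, 12.0 and 14.4 RPM in the same order.

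The 8 members under the minimum mean count were Cox4i2, Cox6b2, Cox7b2, Cox8b, Cox8c, Ndufa11b, Ndufa4l2 and Ndufs5. Cox7b2 and Cox8c had 0 reads in all 4 libraries. Cox6b2, a testis isoform with a mean count of 9.5, fell just outside the minimum with 15 reads in the MV left tumor, 20 in the TRP-1MV tumor, 0 in the remote tumor and 3 in the CTX tumor. Its share of the reads of Cox6b1 and Cox6b2 was 0.948% (0.531% to 1.56%) in the MV left tumor and 1.05% (0.640% to 1.61%) in the TRP-1MV tumor. It was 0 of 4996 reads in the remote tumor, with an exact upper limit of 0.0738%, and 0.0651% (0.0134% to 0.190%) in the CTX tumor. The virus-treated tumors thus had the larger share. Ndufa4l2, with 7, 8, 8 and 8 reads, made up 0.434%, 0.423%, 0.111% and 0.112% of its pair with Ndufa4. Just inside the minimum were Cox6a2 with a mean of 12.25, Cox7a1 with 15.75 and Ndufb4c with 45.5. Ndufs5, an accessory subunit of complex I, had 0, 1, 0 and 0 reads. Many genes of the set have near-identical pseudogene copies, and how reads that match several places were counted is not given in the sources used here, so such a count is uncertain.

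Complex V held the members with the most reads. All 17 members were at least 1.5-fold lower in both virus-treated tumors, 11 of them at least 2-fold in each, with medians of -1.12 and -1.16. Atp5b, the catalytic subunit, was the member with the most reads, at 932 CPM in the MV left tumor, 936 in the TRP-1MV tumor, 1990 in the remote tumor and 1946 in the CTX tumor. Its log2 ratios were -1.06 (-1.09 to -1.03) and -1.06 (-1.08 to -1.03), and total counts gave -0.82 and -0.82, short of a call. Atp5a1 was at 579, 589, 1147 and 1173 CPM, with ratios of -1.02 (-1.06 to -0.98) and -0.99 (-1.03 to -0.96). Per kilobase of exon, Cox8a had the highest level in the CTX tumor of the 86 members with a length, 519 CPM per kb. Atp5b followed with 459 and Atp5a1 with 374. This order depends on the length used, which merges the exons of all annotated transcripts: 619 bp for Cox8a and 4237 bp for Atp5b.

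Within complex V the stalk subunit Atp5o was lowest in the MV left tumor, at 143, 142, 387 and 364 CPM and ratios of -1.34 (-1.42 to -1.27) and -1.36 (-1.43 to -1.29). Atp5pb, another stalk subunit, was highest in the MV left tumor at -0.76 (-0.83 to -0.69), with 174, 167, 298 and 295 CPM. Atp5d, of the central stalk, was highest in the TRP-1MV tumor at -0.72. The c ring that turns with the proton flow is built from 1 protein encoded by 3 genes, which moved unequally. Atp5g3 had ratios of -1.29 and -1.23, Atp5g1 -1.17 and -1.20, and Atp5g2 -0.78 and -0.88. Atp5g2 made up 35.3% (33.9% to 36.7%) of c ring reads in the MV left tumor, 33.1% in the TRP-1MV tumor, 29.7% in the remote tumor and 28.1% (27.4% to 28.9%) in the CTX tumor, and Atp5g3 45.1%, 47.5%, 48.6% and 51.3%.

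The spread of the members around their own median exceeded counting error for most of them. Intervals left out the member median in 62 of 88 members in the MV left tumor against the CTX tumor (33 above it, 29 below) and in 59 in the TRP-1MV tumor, but in 30 in the remote tumor and 13 between the 2 virus-treated tumors. The MV left to CTX and the TRP-1MV to remote ratios share no library. Across the 88 members these ratios correlated with r = 0.93 and rho = 0.87, and with r = 0.88 and rho = 0.85 across 84 members after Cox7a2l and those with a mean count under 100 were left out. Other pairings without a shared library gave lower values across the 88. MV left to remote with TRP-1MV to CTX gave r = 0.85 and rho = 0.84. Remote to CTX with TRP-1MV to MV left gave r = 0.42 and rho = 0.12. The points are genes, share the depth and composition of their libraries and are not replicates. Below the median beyond counting error were 29 members in MV left to CTX and 28 in TRP-1MV to remote, with 22 in both (75.9% and 78.6%). Above it were 33 and 32, with 26 in both (78.8% and 81.2%). The like interval counts, correlations and overlaps over all genes are not given, so none of these is shown to be particular to the members. From lower to upper quartile, the MV left to CTX log2 ratios spanned 0.44 in the members and 1.23 in all genes.

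**Figure D4:**
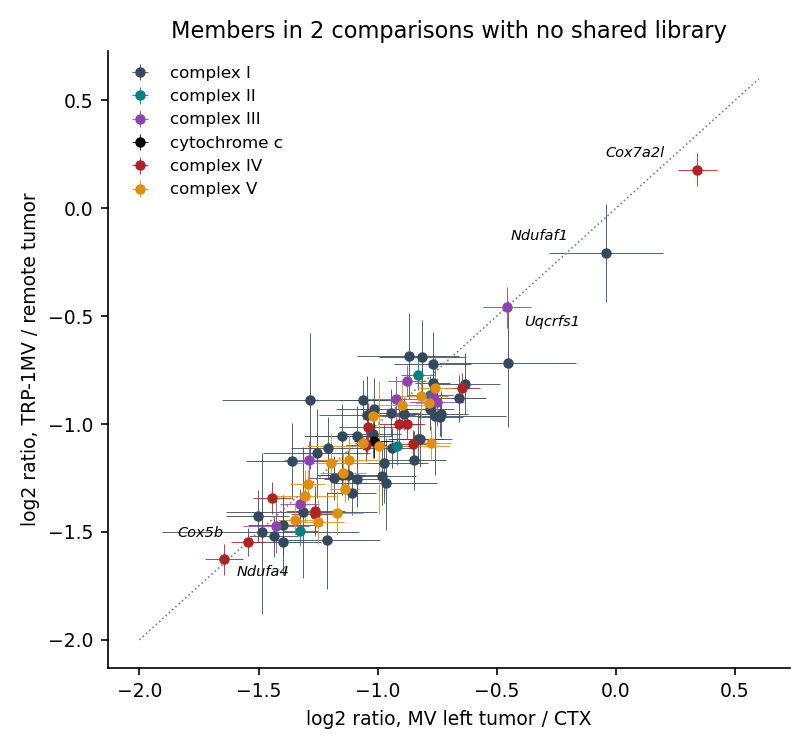
Log2 ratios of TMM-scaled CPM of 85 members with a mean count of at least 100, MV left over CTX tumor (horizontal) against TRP-1MV over remote tumor (vertical). Colours mark the complexes, bars are 95% counting intervals and the dotted line marks equal ratios. Cox7a2l lies alone above 0 on both axes, and Ndufa4 and Cox5b lie at the low end.

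Related lists place the members among other metabolic genes. The 17 TCA cycle genes, which feed the chain with NADH and succinate, had medians of -0.83 in the MV left tumor and -0.998 in the TRP-1MV tumor, with 7 and 8 called lower and 0 higher. Suclg2 was the lowest in the MV left tumor at -1.70, Fh1 (fumarase) was at -1.54 and Dlst the highest at -0.35. The 20 glycolysis genes had medians of -1.21 and -1.05, with 12 and 10 called lower and 1 higher. Eno1 was at 1984, 2077, 6999 and 6523 CPM, a ratio of -1.72, and its paralog Eno2, known as the neuronal enolase, at 59.0, 57.4, 14.9 and 14.7 CPM, a ratio of 2.01. Mitochondrial import and membrane genes (20) had medians of -0.79 and -0.82 with 5 and 6 called lower, among them Slc25a4, an ADP/ATP carrier, at -1.57. In the remote tumor none of the genes of these 3 lists was called. Of all 13030 genes compared there, only 0.253% were called lower and 0.468% higher, so this does not set the lists apart.

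Other mitochondrial and housekeeping machinery had medians nearer to 0. The 78 mitochondrial ribosome genes had medians of -0.66 and -0.69, with 14 and 17 called lower. Complex IV assembly factors (21) had medians of -0.57 and -0.62 with 3 and 2 called lower, and those of complexes II, III and V (14) -0.45 and -0.44 with 2 and 3. Proteasome genes (34) had medians of -0.53 and -0.58 with 1 and 2 called lower, and cytosolic ribosome genes (79) -0.48 and -0.48 with 2 called lower in each and, in the MV left tumor, 1 called higher (Rps27, at 1.05).

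Regulators of mitochondrial biogenesis had medians close to those of all genes. The 14 had medians of -0.12 and -0.17, with 1 called lower, Ppargc1b, a coactivator, at 6.36, 6.64, 16.5 and 17.9 CPM and ratios of -1.50 and -1.43. Nrf1 was at 55.1, 59.2, 77.6 and 78.0 CPM, a ratio of -0.50 in the MV left tumor. Yy1 was at 305, 296, 173 and 172 CPM, and Gabpa, the DNA-binding subunit of GABP, at 130, 119, 80.5 and 89.7 CPM. These gave ratios of 0.83 and 0.54 in the MV left tumor, both short of a call.

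**Figure D5:**
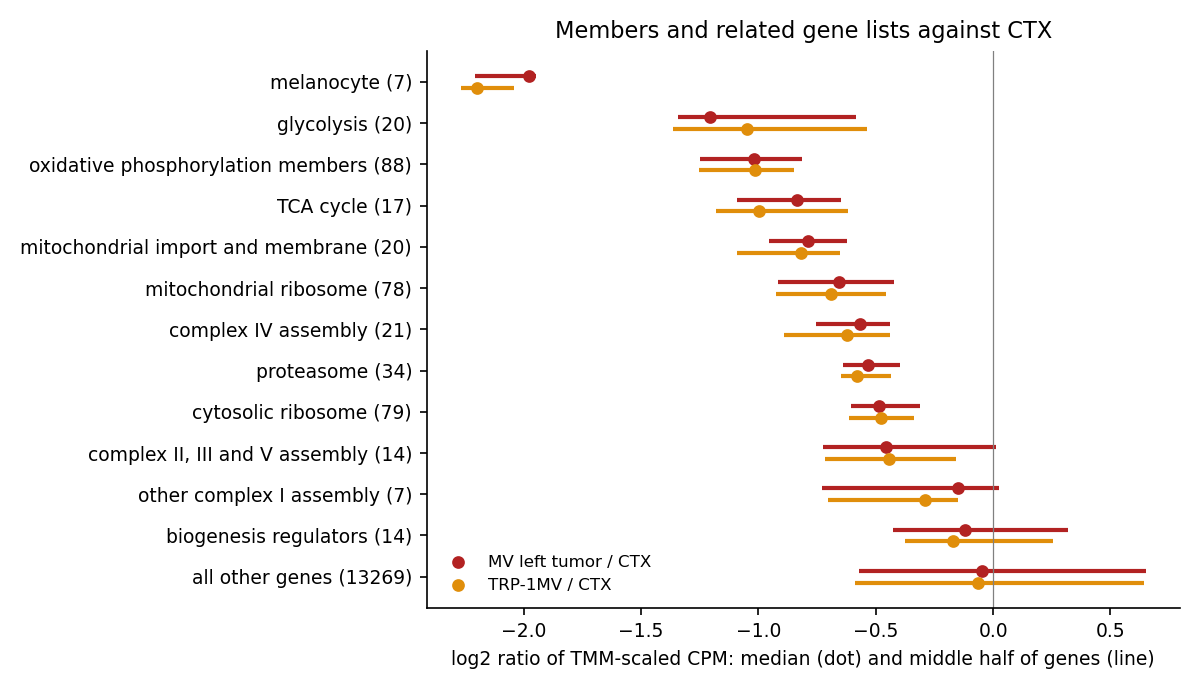
Median log2 ratio of TMM-scaled CPM to the CTX tumor (dots, horizontal axis) and the range from the lower to the upper quartile of genes (lines) for the members, related lists and all other genes, with the number of genes in brackets. Both comparisons share the CTX library. The members (-1.02 and -1.02) lie between the TCA cycle (-0.83 and -0.998) and glycolysis (-1.21 and -1.05), and the melanocyte markers are lowest (-1.98 and -2.20).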

How the data were processed

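RNA-seq was analysed in 4 libraries of mouse tumor tissue, 1 per group, with groups taken from the titles and treatment labels. The authors deposited raw whole-number counts for 25239 symbols per library, without normalization. Per the submitters' processing notes, HISAT2, featureCounts and the build mm10 were used. Versions, annotation, strand setting and the handling of multiply mapped reads were not given in the sources used.

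TMM factors came from all 4 libraries (edgeR 4.0.16 under R 4.3.3), and scaled counts are given as CPM. Ratios carry 95% Clopper-Pearson intervals conditional on the summed count (scipy 1.17.1, numpy 2.4.6, pandas 2.3.3, Python 3.11.15, matplotlib 3.10.9). Genes needed a mean raw count of at least 10. A library with 0 reads was set to a floor of 3 counts. The ratio steps were tested on simulated data. No p-value was computed. Depth ranged from 12375526 to 21790759 counts.

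The members, lists and tests were chosen with earlier results of these data known. Named members are those called, the highest and lowest of each complex, and fixed members by role, and only some of the called ones are named. Some items are not reported here. Genes named in related lists were called or extreme in their list, and Fh1, Nrf1, Yy1 and Gabpa were chosen after their values were seen. Exon lengths and positions came from GENCODE M21, promoters from RefSeq (GRCm38.p6). The alternatives were scaling to 12 housekeeping genes, total counts, upper quartiles or size factors of DESeq2 1.42.0, TMM without members and ribosomal protein genes, other minimum counts, thinning, a prior count of 2, and the remote tumor as the reference.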

Additional observations from a re-analysis of the deposited data

How the results depend on the processing

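No paired analysis was possible because no group has more than 1 library. With total counts the member median was -0.77 in the MV left tumor and -0.78 in the TRP-1MV tumor, and 23 and 24 members were called at least 2-fold lower. On the housekeeping scale the medians were -0.41 and -0.47, with 2 and 3 members called, and 25 and 34 at a ratio of 1.5 (a count added after the data were seen), where 6.84% and 8.42% of all genes were that much lower. A ratio of 1.5 under TMM gave 82 in each. With no minimum count, 1 member, Cox6b2, was called at least 2-fold higher in each. Without assembly factors and other members that are not subunits, the level was 8309, 8218, 14838 and 14404 RPM in the MV left, TRP-1MV, remote and CTX tumors, and without Rn45s, Lars2, Rpph1 and Rmrp in the total it was 8744 RPM in the MV left tumor and 8645 in the TRP-1MV tumor. The other 146 summary values stayed within the limits set for them, and no named member's called ratio changed sign under the alternatives run. Of the named members' values, 44 lost a call and 5 gained one, with 20 of the 44 lost on the housekeeping scale and 10 with total counts. Single libraries limit every value: differences between animals, sides or handling cannot be told apart from the treatments.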
